A study of Mus musculus with 4 samples.

Results

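The CXC chemokine genes Cxcl1, Cxcl2, Cxcl3, Cxcl9, Cxcl10 and Cxcl16 were examined in a map of chromatin occupied by MED1, part of the Mediator complex, the bridge between transcription factors and RNA polymerase II. The 6 genes, out of 21883 protein-coding genes on the nuclear chromosomes, were taken as a family and found by symbol at their RefSeq positions on mm10 (GRCm38.p6). ChIP-seq for MED1 was done on the mouse macrophage-like cell line RAW 264.7 after 2 h with lipopolysaccharide (LPS), the bacterial ligand of Toll-like receptor 4 (2 libraries), and on untreated cells (2 libraries). The LPS dose is 10 ng/mL in the sample labels and 100 ng/mL in the treatment protocol. RAW 264.7 is 1 established line, and nothing in the labels says that libraries of a condition came from separate cultures. A single list of intervals was deposited for the series, with no height, no significance and no library or condition for any interval. LPS-stimulated and untreated cells could therefore not be compared, the spread between libraries is unknown, read depth is unknown, and all values below are positions, counts and widths described without a test.

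CXC chemokines are small secreted proteins that steer leukocytes through G protein-coupled receptors. CXCL1, CXCL2 and CXCL3 carry a Glu-Leu-Arg motif before the first cysteines and attract neutrophils through CXCR2. Their genes are rapid targets of NF-kB in macrophages exposed to LPS. CXCL9 and CXCL10 lack that motif, attract activated T cells and natural killer cells through CXCR3, and are induced by interferons, CXCL10 also directly by LPS. CXCL16 is made as a membrane-anchored protein that binds CXCR6 and also takes up oxidised lipoprotein, and the metalloproteases ADAM10 and ADAM17 release its soluble form.

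The number and placement of MED1 regions differed widely among the 6 genes. Cxcl2, Cxcl10 and Cxcl16 each lay entirely within a MED1 region, whereas no region touched the bodies of Cxcl1, Cxcl3 or Cxcl9. Abutting intervals of the list were joined into regions, and a region was counted for a gene when it overlapped the gene or had its midpoint within 50 kb of either gene end. By this count Cxcl9 and Cxcl10 had 8 regions each, Cxcl16 had 7, Cxcl1 and Cxcl2 had 5 each and Cxcl3 had 1. All 6 genes had at least 1, as did 70.6% of all protein-coding genes. The median was 6 regions over the 6 genes and 2 over all protein-coding genes (quartiles 0 and 5). These 6 counts are not separate, since Cxcl1 and Cxcl2 had the same 5 regions and Cxcl9 and Cxcl10 shared 7. Cxcl9 and Cxcl10 reached 8 regions, as did 6.87% of protein-coding genes. A region overlapped 3 of the 6 genes, while 50.6% of all protein-coding genes were overlapped. Complete inclusion of a gene in 1 region, seen for 3 of the 6, was found for 1.55% of all protein-coding genes. The 6 genes measure 1877 to 6749 bp, and the part of gene length in this count was not tested.

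**Figure D1:**
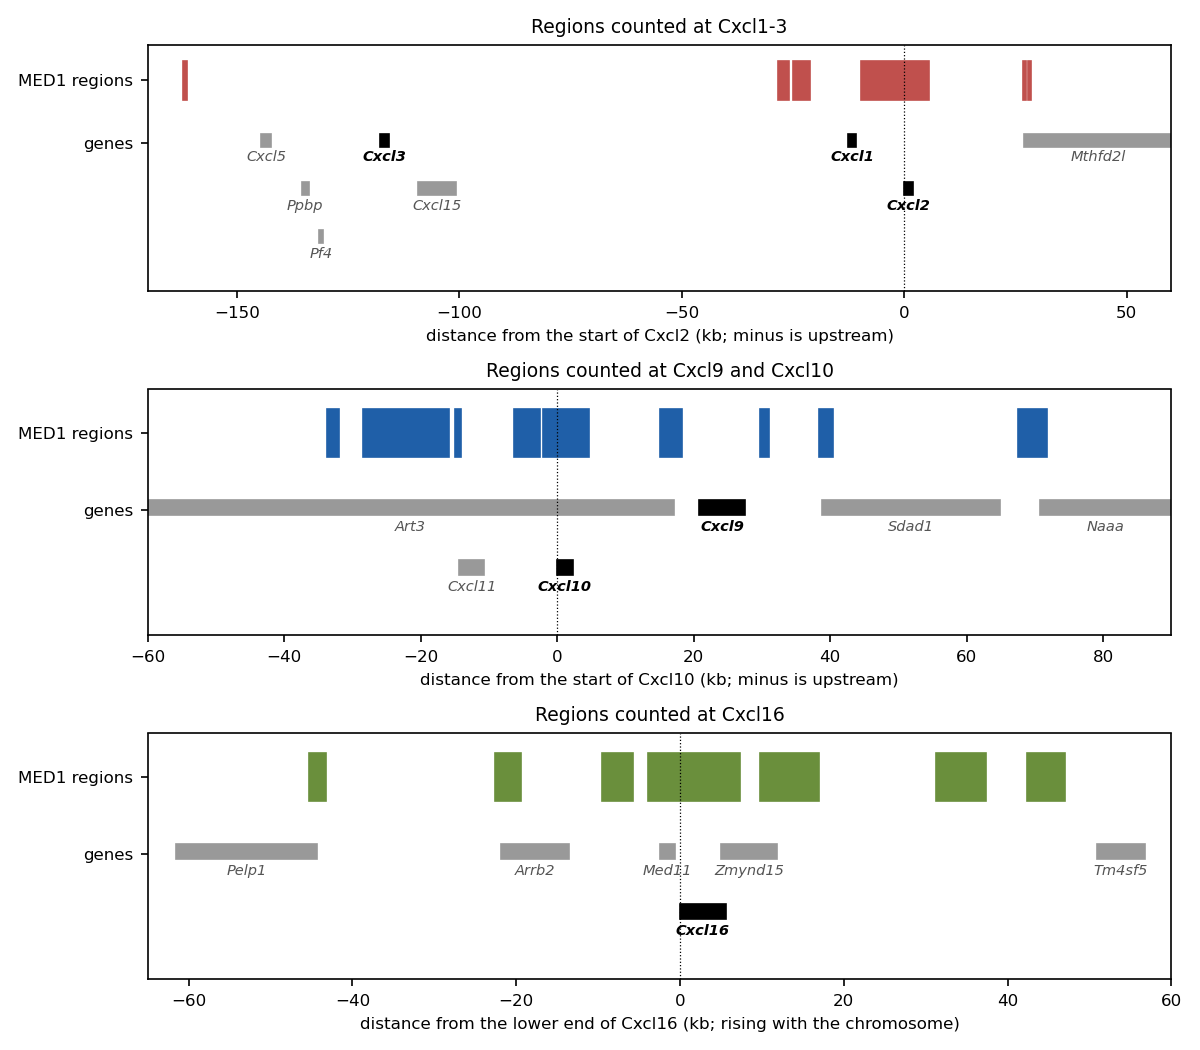
Position of the MED1 regions counted for the genes (coloured bars, upper row of each panel) and of the annotated genes (members in black, others in grey), drawn to scale against distance in kb from the start of Cxcl2 (top), the start of Cxcl10 (middle) and the lower end of Cxcl16 (bottom). Cxcl2, Cxcl10 and Cxcl16 sit under a region, Cxcl1 and Cxcl9 lie between regions, and Cxcl3 lies in a stretch of 132.8 kb without any.

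The 250 bases before the annotated starts are shown for the motifs they hold. Some motifs were found in both the neutrophil-attracting and the interferon-inducible genes, others only in the latter. MED1 regions covered some of these stretches completely and others not at all. They come from RefSeq (GRCm38.p6), which supplied 5 of the 6 genes here, all but Cxcl16, and lie at chr5:90890995-90891244 (plus strand) for Cxcl1, chr5:90903649-90903898 (plus strand) for Cxcl2, chr5:90785851-90786100 (plus strand) for Cxcl3, chr5:92328080-92328329 (minus strand) for Cxcl9 and chr5:92348890-92349139 (minus strand) for Cxcl10. Each runs 5′ to 3′ on the strand of its gene and ends 1 base before the start. Capitals mark matches to the NF-kB consensus and to the core of the interferon-stimulated response element (ISRE), GAAANNGAA.
Cxcl1: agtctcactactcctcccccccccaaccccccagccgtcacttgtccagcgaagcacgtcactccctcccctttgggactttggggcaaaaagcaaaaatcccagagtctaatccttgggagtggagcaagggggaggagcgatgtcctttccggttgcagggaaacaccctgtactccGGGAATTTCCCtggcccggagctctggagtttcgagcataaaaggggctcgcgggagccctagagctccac
Cxcl2: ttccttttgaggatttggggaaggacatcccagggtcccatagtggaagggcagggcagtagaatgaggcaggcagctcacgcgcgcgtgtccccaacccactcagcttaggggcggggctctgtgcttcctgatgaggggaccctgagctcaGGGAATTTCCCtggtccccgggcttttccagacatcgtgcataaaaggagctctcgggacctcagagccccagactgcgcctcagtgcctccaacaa
Cxcl3: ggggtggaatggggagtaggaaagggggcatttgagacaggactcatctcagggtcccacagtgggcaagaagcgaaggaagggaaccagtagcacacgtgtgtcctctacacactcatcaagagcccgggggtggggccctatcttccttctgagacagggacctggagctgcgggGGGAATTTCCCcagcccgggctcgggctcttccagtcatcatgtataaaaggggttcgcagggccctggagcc
Cxcl9: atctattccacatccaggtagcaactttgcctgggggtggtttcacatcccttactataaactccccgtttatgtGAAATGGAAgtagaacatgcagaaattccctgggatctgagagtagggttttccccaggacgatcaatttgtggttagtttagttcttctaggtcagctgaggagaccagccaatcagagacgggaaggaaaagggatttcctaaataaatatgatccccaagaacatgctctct
Cxcl10: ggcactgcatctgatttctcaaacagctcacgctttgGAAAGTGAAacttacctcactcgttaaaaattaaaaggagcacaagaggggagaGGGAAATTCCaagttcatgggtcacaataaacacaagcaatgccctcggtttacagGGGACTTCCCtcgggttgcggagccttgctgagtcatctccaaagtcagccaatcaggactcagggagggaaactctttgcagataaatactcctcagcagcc

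Cxcl1, Cxcl2 and Cxcl3 each held 1 NF-kB match, and all of them contained the same run of 11 bases, GGGAATTTCCC. Its first 10 bases matched the consensus on the strand of the gene and its last 10 on the opposite strand, and these matches, with 9 bases in common, were counted as 1 site. It began 71 bases before the start in Cxcl1 (-71 to -61), 97 bases before it in Cxcl2 (-97 to -87) and 73 bases before it in Cxcl3 (-73 to -63). This run was the longest shared by the upstream windows of all 3 genes and occurred in 10 of 21262 RefSeq upstream windows of the same length (0.047%). In Cxcl1 and Cxcl2 the shared run extended to 14 bases, GGGAATTTCCCTGG, which no other upstream window held. The NF-kB consensus as a whole, GGGRNWYYCC (R is A or G, N any base, W is A or T, Y is C or T), was found in 4.18% of these windows.

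Cxcl10 held 2 separate NF-kB sites (-159 to -150 and -103 to -94), an ISRE core (-213 to -205) and an AP-1 match, TGANTCA (-74 to -68). At least 2 NF-kB sites were present in 0.174% of all upstream windows, an ISRE core in 6.83% and an AP-1 match in 6.13%. Cxcl9 held an ISRE core (-175 to -167) and no full match to the NF-kB consensus. Near matches to a consensus were not counted. Among the neutrophil-attracting genes no ISRE core or AP-1 match was found. The letters of a TATA box, TATAAA on the strand of the gene, lay at -30 to -25 in Cxcl3 and at -195 to -190 in Cxcl9. They were found in 7.67% of all windows. Cxcl1 and Cxcl2 hold CATAAA, which differs in its first letter and was not counted. Whether any of these acts as a TATA box was not tested. No window of the 5 genes held the C/EBP motif TTGCNNAA (9.09% of all windows) or the PU.1 motif GAGGAAGT (2.23%). All motifs but the TATA box were searched on both strands, and no matches of different motifs overlapped. A match describes letters in this window and does not show that a factor binds there.

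**Figure D2:**
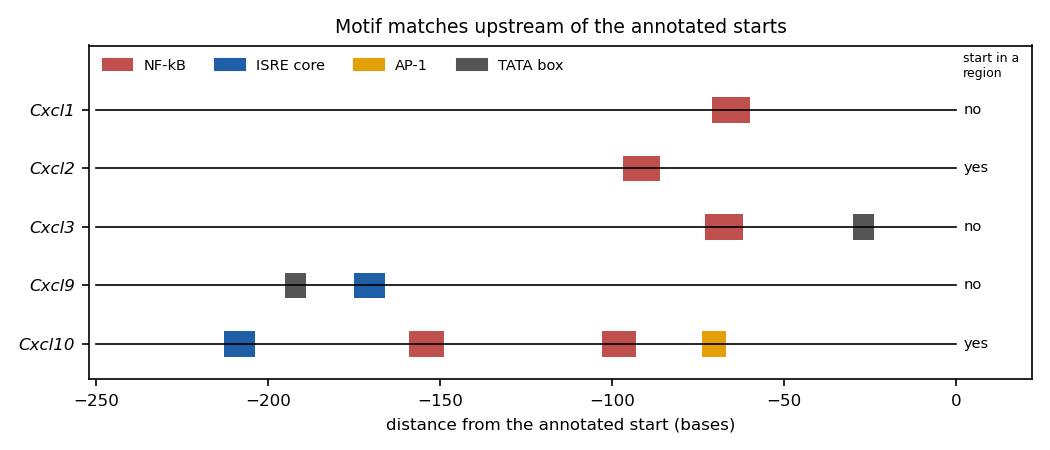
Matches to 4 motifs (coloured boxes, to scale) in the 250 bases before the annotated start of 5 genes, against distance from the start in bases, with a note at the right on whether a MED1 region covers that start. NF-kB matches stand in the neutrophil-attracting genes and Cxcl10, and ISRE cores in Cxcl9 and Cxcl10, while the covered starts are those of Cxcl2 and Cxcl10.

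Motif content and MED1 coverage of these windows were not matched gene by gene. All 250 bases were covered by a region in Cxcl2 and in Cxcl10, and 0 of 250 in Cxcl1, Cxcl3 and Cxcl9. Annotated starts were covered for 2 of the 5 genes and for 42.8% of the 17491 protein-coding genes with a RefSeq promoter entry. Cxcl16 has no such entry and is not in this count, but it lay entirely inside a region, so both its ends were covered. Cxcl1, Cxcl2 and Cxcl3 share the 11-base run, but a region covered the start of Cxcl2 alone among them.

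Cxcl2, which encodes macrophage inflammatory protein 2, lay inside the widest region of the 6 genes. Cxcl2 occupies positions 90903899 to 90905938 of chromosome 5, and the region ran from 90894074 to 90909353, a width of 15280 bp. It extended from -9.83 to 5.45 kb relative to the start of Cxcl2 and so covered the gene, its upstream sequence and 3.42 kb beyond its end. Only 161 of the 22570 regions in the list (0.713%) were at least as wide. The region was assembled from 7 abutting intervals of 105, 777, 1562, 5269, 707, 2326 and 4534 bp, a number reached or exceeded by 111 regions (0.492%). What an interval stands for is not stated, and some at these loci were as short as 1 bp. The 7 intervals can therefore not be read as separate MED1 sites. The start of Cxcl2 fell in the sixth interval, of 2326 bp.

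Cxcl1, which encodes the chemokine KC, occupies positions 90891245 to 90893121, 10.8 kb from Cxcl2 and on the same strand. The 15280 bp region began 952 bp past the end of Cxcl1, so Cxcl1 was flanked by MED1 regions but not covered. The nearest region edge lay 2.83 kb downstream of its start. On the other side, a pair of 3-interval regions of 3882 and 2558 bp lay from -12.4 to -8.47 kb and from -15.7 to -13.2 kb relative to the start of Cxcl1. Neither of these overlapped an annotated gene. Because Cxcl1 and Cxcl2 are neighbours, the same 5 regions were counted for both genes. The other 2 of them, single intervals of 717 and 826 bp, lay 39.3 to 41.2 kb downstream of the start of Cxcl1 and overlapped Mthfd2l, which encodes a mitochondrial enzyme of folate metabolism. The start of Mthfd2l fell in the first of these. The widest region supplied 63.4% of the length covered at Cxcl1, Cxcl2 and Cxcl3 together.

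Cxcl3, whose product also attracts neutrophils, stood apart from Cxcl1 and Cxcl2. It occupies positions 90786101 to 90788093, 103.2 kb before Cxcl1. Its only region within 50 kb was 829 bp wide (90741858 to 90742686) with the midpoint 43.8 kb away, and 92.2% of all regions were at least as wide. Within 10 kb Cxcl3 had 0 regions. The gene lay in an interval of 132.8 kb without any MED1 region (90742687 to 90875525), which also held Cxcl5, Ppbp, Pf4 and Cxcl15, further CXC ligands. Of the 22549 gaps between successive regions, 12.7% were at least as long, and the median gap was 19.2 kb. The 4 neighbouring ligand genes had at most 1 region within 50 kb, the same one as Cxcl3, and Cxcl15, a lung-associated ligand also called lungkine, had 0.

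Cxcl10, which encodes the interferon-inducible protein IP-10, lay inside a region of 6642 bp (92344272 to 92350913 of chromosome 5; gene at 92346638 to 92348889, minus strand). The region reached from -2.02 to 4.62 kb relative to its start and consisted of 3 intervals, the middle one of 1657 bp covering the start. Of all regions, 5.27% were at least as wide. Upstream of this region, within 50 kb, lay 4 further regions with 19.1 kb of covered sequence, and downstream lay 3 with 6.64 kb. The closest upstream region spanned -6.29 to -2.54 kb. The widest spanned -28.4 to -15.8 kb with 12582 bp, of which 9944 bp were a single interval, and 1.2% of all regions were as wide or wider. Cxcl10 lies within the annotated span of Art3, an ADP-ribosyltransferase family gene on the opposite strand (92331799 to 92414628). A region at Cxcl10 is therefore also inside Art3, and which gene it serves cannot be read from the list.

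Cxcl9, which encodes MIG, the monokine induced by interferon gamma, occupies positions 92321331 to 92328079 on the minus strand and was not overlapped by a region. The nearest region to its start spanned -5.74 to -2.54 kb (92330615 to 92333817, 3203 bp). The start of Art3 lies within that region, so it is at a promoter of another gene. Downstream, a region of 1300 bp lay 2.15 kb from the end of Cxcl9 and overlapped no annotated gene. Of the 8 regions of Cxcl9, 7 were also counted for Cxcl10. The exceptions were a region of 4275 bp at the start of Naaa, an N-acylethanolamine hydrolase gene, counted for Cxcl9 alone, and a region of 1809 bp inside Art3, counted for Cxcl10 alone. A further shared region of 2138 bp covered the start of Sdad1, the neighbour on the far side of Cxcl9. Cxcl11, whose product is a CXCR3 ligand in other mouse strains and in human, is annotated as a transcribed pseudogene on this C57BL/6J assembly, and a single interval of 913 bp overlapped it.

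Cxcl1, Cxcl2 and Cxcl3 were set against Cxcl9 and Cxcl10 as a pair of loci, because neighbouring genes share regions and are not replicates of each other. The Cxcl1-3 locus had 6 distinct regions and the Cxcl9 and Cxcl10 locus had 9. The Cxcl1-3 genes span 119.8 kb and the Cxcl9 and Cxcl10 genes 27.6 kb, so the windows searched differed in length (219.8 kb at Cxcl1-3 and 127.6 kb at Cxcl9 and Cxcl10, measured from 50 kb before the first gene to 50 kb after the last). The Cxcl1-3 window held the whole stretch of 132.8 kb around Cxcl3 without any region, which lowers its density and covered share. Cxcl1 and Cxcl2 shared 5 of the 6 regions, covering 23.3 kb, and no density was computed without Cxcl3. Per 100 kb of window there were 2.73 regions at Cxcl1-3 and 7.06 at Cxcl9 and Cxcl10, against 0.839 per 100 kb of the annotated span of all chromosomes. That span includes sequence far from genes, so it is not a like measure. Within 50 kb of single protein-coding genes the median was 2 regions (quartiles 0 and 5). Regions covered 24.1 kb at Cxcl1-3 (11.0% of the window) and 36.6 kb at Cxcl9 and Cxcl10 (28.7% of the window). The widest region supplied 63.4% of the covered length at Cxcl1-3 and 34.4% at Cxcl9 and Cxcl10.

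The make-up of the regions was also counted, over few regions at each locus. At Cxcl1-3, 3 of 6 regions consisted of 3 intervals, 2 of a single interval and 1 of 7. At Cxcl9 and Cxcl10, 8 of 9 consisted of 3 intervals and 1 of a single interval. In the whole list 60.4% of regions held 3 intervals and 35.3% a single one, shares near those at Cxcl1-3. The median width was 1694 bp at Cxcl1-3 and 3203 bp at Cxcl9 and Cxcl10, against 1948 bp over all regions (quartiles 1302 and 3012 bp). Widths overlapped between the loci, ranging from 717 to 15280 bp at Cxcl1-3 and from 913 to 12582 bp at Cxcl9 and Cxcl10.

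Regions were also divided by whether they covered an annotated start. The share of all regions that did so is not given here, so the counts below have no background. A region covered an annotated start in 2 cases at Cxcl1-3 (Cxcl2 and Mthfd2l) and in 4 cases at Cxcl9 and Cxcl10 (Cxcl10, Art3, Sdad1 and Naaa). Regions that covered no annotated start numbered 4 at Cxcl1-3 and 5 at Cxcl9 and Cxcl10, a comparison added after the other counts were known. Only starts of protein-coding genes with a promoter entry were counted. Cxcl11 has no such entry, and its upper end lies in a region counted among the 5. With so few regions in a single list, a difference of this size has no replicate check.

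**Figure D3:**
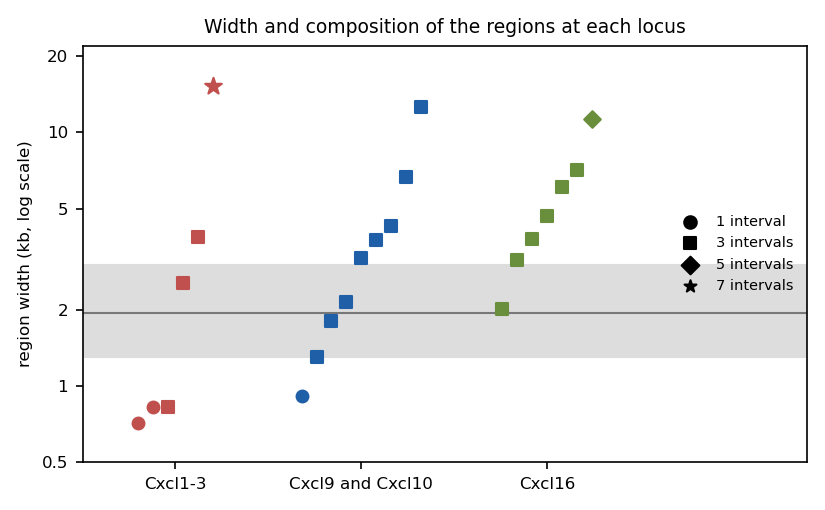
Width in kb (log scale) of each region counted at Cxcl1-3, at Cxcl9 and Cxcl10 and at Cxcl16; 1 symbol is 1 region, its shape gives the number of abutting intervals, and the grey band and line show the quartiles (1302 and 3012 bp) and median (1948 bp) of all 22570 regions. The widest regions are the 7-interval region over Cxcl2 (15280 bp), a 3-interval region upstream of Cxcl10 (12582 bp) and the 5-interval region over Cxcl16 (11326 bp).

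Cxcl16 had 7 regions with 38.1 kb of covered sequence, the most of the 6 genes, and none of them was a single interval. It lies on chromosome 11 at 70454389 to 70459984, inside a region of 11326 bp made of 5 intervals (70450446 to 70461771), and 1.63% of all regions were at least as wide. The same region contained the start and the whole of Med11, which encodes a head-module subunit of Mediator itself, and part of Zmynd15, whose annotated span overlaps that of Cxcl16. The signal could therefore not be assigned to Cxcl16 alone. The next region, of 7110 bp, lay 9.81 to 16.9 kb above the lower end of Cxcl16, and 3 others between 2007 and 3788 bp wide lay below it. One of those overlapped Arrb2, the gene for beta-arrestin 2, and another covered the start of Pelp1, a nuclear receptor coregulator gene. A pair of regions of 6085 and 4668 bp between Zmynd15 and Tm4sf5 overlapped no annotated gene. The median width at Cxcl16 was 4668 bp, and as many regions per gene or more were found for 10.8% of all protein-coding genes.

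The order of the genes depended on the distance considered. Within 10 kb, Cxcl16 had 3 regions, Cxcl9 and Cxcl10 had 2 each, Cxcl1 and Cxcl2 had 1 each and Cxcl3 had 0, against a median of 1 over all protein-coding genes. Within 100 kb, Cxcl16 had 12, Cxcl10 had 11, Cxcl9 had 10, Cxcl1 and Cxcl2 had 5 each and Cxcl3 had 3, against a median of 4. Cxcl1 and Cxcl2 thus gained no region between 50 and 100 kb, and 44.5% of protein-coding genes had at least as many at the larger distance. Measured by covered sequence within 50 kb in place of the number of regions, Cxcl1 and Cxcl2, with 23.3 kb each, were matched or exceeded by 6.75% of protein-coding genes, Cxcl10 with 32.3 kb by 2.71%, Cxcl9 with 34.8 kb by 2.06% and Cxcl16 with 38.1 kb by 1.54%.

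**Figure D4:**
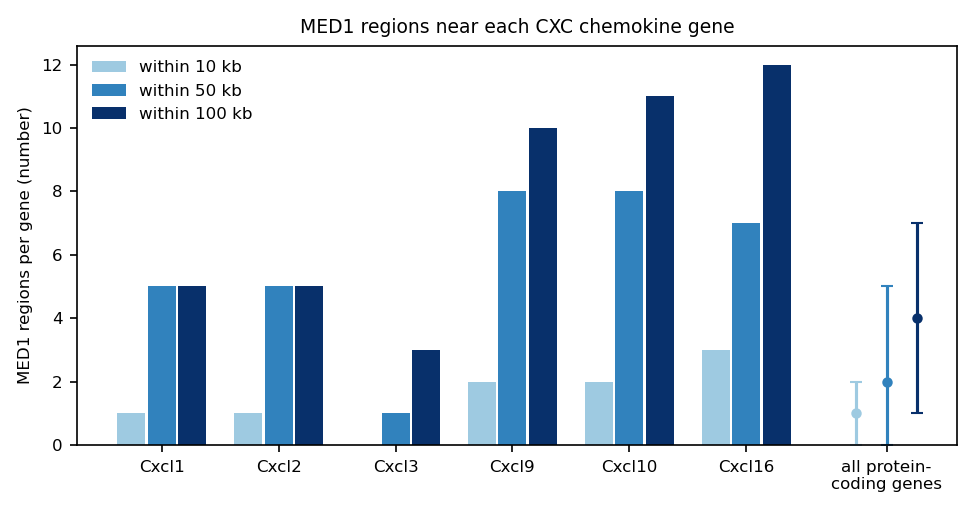
Number of MED1 regions per gene within 10, 50 and 100 kb for the 6 CXC chemokine genes (bars), and the median with quartiles over 21883 protein-coding genes (points with error bars). Cxcl9, Cxcl10 and Cxcl16 lie above the upper quartile of 5 regions within 50 kb, Cxcl1 and Cxcl2 equal it, and Cxcl3 lies below the median of 2.

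Regions separated by no more than 12500 bp were stitched together, a usual way of finding long enhancer domains, and the clusters were ranked by the length their regions cover. Cxcl9 and Cxcl10 lay in the same cluster, which comprised 8 regions, spanned 74.2 kb (92308426 to 92382601) and covered 32.3 kb. It ranked 115 of 13554 clusters by covered length (0.848% covered at least as much), and 0.627% of clusters held at least as many regions. Cxcl1 and Cxcl2 shared a cluster of 3 regions spanning 33.8 kb and covering 21.7 kb, which ranked 288 by covered length (2.12% covered at least as much), and 15.6% of clusters held at least as many regions. Cxcl16 lay in a cluster of 4 regions covering 25.4 kb, which ranked 209 (1.54% covered at least as much), and 7.43% of clusters held at least as many regions. Cxcl3 lay in none, and the nearest cluster was its single region of 829 bp, which ranked 12746. Stitching within 5 kb changed these assignments. Cxcl9 and Cxcl1 then lay outside every cluster, Cxcl9 2.15 kb from one of 1300 bp and Cxcl1 952 bp from the region over Cxcl2. The cluster of Cxcl10 shrank to 2 regions covering 10.4 kb, with 4.73% of clusters covering at least as much. The cluster of Cxcl2 then consisted of its 15280 bp region, with 2.17% of clusters covering at least as much, compared with 2.12% at the wider distance. The cluster of Cxcl16 then held 3 regions covering 22.2 kb, with 0.905% of clusters covering at least as much.

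**Figure D5:**
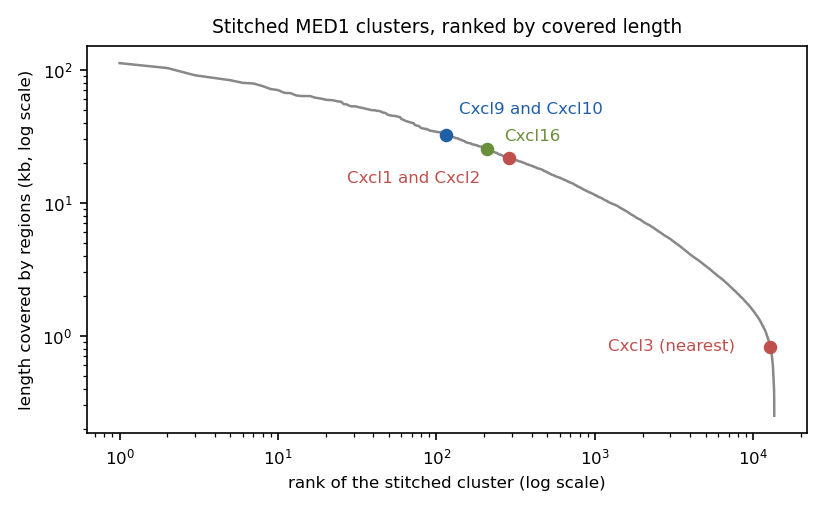
Length covered by regions (kb, log scale) against rank (log scale) for all 13554 stitched MED1 clusters (grey line), with the clusters of the CXC chemokine genes marked. The cluster of Cxcl9 and Cxcl10 (rank 115), that of Cxcl16 (rank 209) and that of Cxcl1 and Cxcl2 (rank 288) lie on the upper part of the curve, and the single region nearest to Cxcl3 (rank 12746) near its lower end.

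The other CXC ligand genes varied from 0 to 7 regions. Of 9 further ligands, 6 had a region within 50 kb, a share close to the 70.6% of all protein-coding genes, and their median was 1 region, against 2 over all protein-coding genes. A region overlapped 2 of the 9, against 50.6% of all protein-coding genes. These were Cxcl11, annotated as a pseudogene on the reference assembly (7 regions within 50 kb), and Cxcl17, a mucosal ligand (5 regions). Cxcl14 had 1 region, 38.1 kb away by its midpoint. Cxcl5, Pf4 and Ppbp, the last 2 being platelet chemokines, had 1 each, the same region as Cxcl3. The homeostatic chemokine genes Cxcl12, whose product retains haematopoietic cells through CXCR4, and Cxcl13, whose product guides B cells to follicles, had 0, with the nearest region edges 250 and 199 kb away.

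Among the receptors, 6 of 8 had a region within 50 kb and 5 of 8 were overlapped by one, against 70.6% and 50.6% of all protein-coding genes. Cxcr6, the receptor of CXCL16, was overlapped by a region of 11285 bp that began 1.75 kb from its start, and Cxcr5, which guides lymphocytes towards CXCL13, by one of 5563 bp. Within 50 kb, Cxcr5 had 6 regions, Cxcr6 had 5, Cxcr1 had 4, Cxcr2 had 2, and Cxcr3 and Cxcr4 had 1 each. At the receptors of the neutrophil-attracting ligands, a region of 990 bp overlapped Cxcr2, and the nearest edge to Cxcr1 lay 6.08 kb away. The starts of Cxcr3, the receptor of CXCL9 and CXCL10, and of Cxcr4 were covered by regions of 601 and 2037 bp. The atypical receptor genes Ackr1 and Ackr3 had 0 regions. Both CXCL16 sheddase genes had a covered start, as did 42.8% of genes with a promoter entry, with 5 regions at Adam10 and 6 at Adam17.

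As a check of the cell type, MED1 regions overlapped 6 of 6 macrophage marker genes (Csf1r, Spi1, Cd68, Adgre1, Lyz2 and Itgam), against 50.6% of all protein-coding genes. No region overlapped the T cell markers Cd3e and Cd8a, the B cell marker Cd79a or the hepatocyte marker Alb. Regions nevertheless lay near some of these, with 4 within 50 kb of Cd79a, the closest 63 bp from the gene, 3 within 50 kb of Cd3e, and 0 at Cd8a and Alb.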

How the data were processed

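MED1 ChIP-seq libraries came from RAW 264.7 cells stimulated with LPS for 2 h (2 libraries) and from untreated cells (2 libraries). Fixation used DSG followed by formaldehyde and sequencing gave single reads, per the labels' protocols. Bowtie, SAMtools, MACS2 2.2.6 and mm10 are named in the submitters' processing notes; for peak settings, any control library and pooling, details were not given in the sources used here. Positions of 53764 intervals were deposited by the authors, and the deposited score is 0 in every line. The list was deposited for the series, with 0 columns of other samples. Without counts, depth and precision per library are unknown, and the planned comparison of conditions could not be made.

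The 4 intervals outside chromosomes 1 to 19, X and Y were left out. Abutting intervals were joined into 22570 regions. Coordinates are 1-based. Gene positions, upstream sequences and strands came from RefSeq GRCm38.p6, each gene counted once; a start is that of the RefSeq promoter entry, and the 21262 upstream windows are those of protein-coding genes. Joining, counting and motif search were checked on simulated data. The genes and lists were chosen with earlier results of these data known. The genes named were the 6 members, their protein-coding neighbours within 50 kb, a list of CXC ligands, receptors and sheddases, and the cell type markers, of which 1 is not reported here. Alternatives were windows of 10 and 100 kb, any overlap with the window, unjoined intervals, joining within 500 bp, regions at or above the median width, single-interval regions left out, stitching within 5 kb, ranking by number of regions and starts within 1 kb. Leaving out Cxcl3 and counting only regions that cover no annotated start were added after the data were examined. Python 3.11.15, numpy 2.4.6, pandas 2.3.3 and matplotlib 3.10.9 were used.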

Additional observations from a re-analysis of the deposited data

How the results depend on the processing

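The Cxcl1-3 locus had fewer distinct regions than the Cxcl9 and Cxcl10 locus in the main count (difference -3) and in each of the 9 alternatives run. The difference was -5 with a window of 100 kb and -7 for unjoined intervals (18 at Cxcl1-3, 25 at Cxcl9 and Cxcl10). It was -1 for regions covering no annotated start (4 and 5), and -3 or -4 in the others. The value of -1 leaves out Cxcl11, which has no promoter entry and whose upper end lies in a counted region. Counting that end as a start would remove the difference. With a window of 10 kb the counts were 1 at Cxcl1-3 and 4 at Cxcl9 and Cxcl10, and with regions at or above the median width 3 and 6. With those 2 settings 5 of the 6 genes had a region, Cxcl3 having 0; with the other 5 settings for which this was counted all 6 had one. Counts of single genes moved by more than 1.5 times in 20 of 42 recomputed values, mostly under the window of 10 kb or for unjoined intervals, which alter the count by construction. Starts with a region were 2 of 5 whether covered or within 1 kb, with Cxcl16 left out for lack of a promoter entry. The list gives no score, so no stricter threshold of the authors could be applied, and no library could be left out. No paired analysis was possible because the list holds no values per library. What depth limits cannot be stated, since no counts are given.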

Other observations

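The upstream windows of Cxcl9 and Cxcl10 shared a run of 11 bases, CAGCCAATCAG, the longest they had in common, which contains the letters of a CCAAT box. It began 68 bases before the start of Cxcl9 (-68) and 57 bases before that of Cxcl10 (-57), and 197 of 21262 upstream windows (0.927%) held it on either strand. This run was singled out after the sequences were compared.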
